A study of Mus musculus with 26 samples.

Results

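Mouse embryonic stem cells that lack ERR beta and express its paralog ERR gamma were compared with wild-type embryonic stem cells. The comparison takes 6 of the 26 libraries of the series: 2 libraries of knockout cells given ERR gamma, titled KO/ERRg-wt and called KO_ERRg_wt here (clones 14-1-10 and 14-11, 1 library each), and 4 libraries of wild-type cells, titled WT/Mock and called WT_mock (clones 5-2 and 5-5, 2 libraries each). Libraries were chosen by their titles alone and the libraries of a clone were summed, so that n = 2 clones in each group. The question was which genes ERR gamma takes past their wild-type level and which it leaves unrestored, so 2 further groups were used as reference points. They were the knockout with no ectopic receptor (KO_mock, genotype ERR beta -/-, clones 12-1 and 12-3) and the knockout given wild-type ERR beta (KO_ERRb_wt, clones 8-3 and 8-4), with 4 libraries each. KO_ERRg_wt cells carry the same ERR beta -/- genotype with wild-type ERR gamma as the ectopic protein, inducible by doxycycline per the design text, whereas WT_mock cells have the wild-type genotype and no ectopic expression. All groups, WT_mock included, were seeded at 1600 cells and received doxycycline at 2 µg/ml for 3 days in N2B27 medium with PD and CH. The growth protocol adds LIF, which the design text does not name. Each line is a single clone, so a difference between groups cannot be told apart from differences between the clones that were picked.

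The estrogen-related receptors are orphan nuclear receptors that bind a common DNA element as monomers or dimers and recruit coactivators without a known natural hormone. ERR beta is part of the transcription factor network that maintains naive pluripotency in mouse embryonic stem cells. ERR gamma is best known in heart, muscle and other oxidative tissues, where it activates genes of fatty acid oxidation and mitochondrial respiration.

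The 6 libraries held 22393815 to 27875142 counts, so a KO_ERRg_wt clone, with 1 library, was read less deeply than a WT_mock clone, with 2. The embryonic stem cell markers Pou5f1, Sox2, Nanog, Zfp42 and Utf1 were all detected, with summed levels of 2221 to 2416 CPM (counts scaled to a common library size) in WT_mock and 2342 to 2431 CPM in KO_ERRg_wt. The 7 fibroblast feeder markers summed to 0.899 to 1.48 CPM in WT_mock and 0.868 to 1.33 CPM in KO_ERRg_wt, with Postn at 0 counts in both. Between the 2 WT_mock clones, 34 of the 11544 genes whose mean log2 CPM was 1 or more differed by 2-fold or more, and 6 did so between the 2 KO_ERRg_wt clones. In bulk RNA, fewer cells of a type and less RNA per cell cannot be told apart. Values after a gene are log2 fold changes of KO_ERRg_wt over WT_mock ± standard error unless stated otherwise, and calls were made at an adjusted p under 0.05 (edgeR quasi-likelihood test, Benjamini-Hochberg over 15238 genes).

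The receptors were examined first. Esrrg (mm10 chromosome 1, 187609006 to 188214884, plus strand), which encodes ERR gamma, had 6381 counts in clone 14-1-10 and 3152 counts in clone 14-11, or 229 and 124 CPM. The 4 WT_mock libraries held 2 Esrrg counts in all, giving a ratio of 8529 with an exact 95% interval for counting error of 2360 to 70436. Esrrb (chromosome 12, 86361117 to 86521628, plus strand), which encodes ERR beta, was at 602 and 560 CPM in the WT_mock clones, 277 and 276 in the KO_mock clones, 429 and 410 in the KO_ERRb_wt clones and 477 and 466 in the KO_ERRg_wt clones. Esrrb was thus read at 81.1% of the WT_mock mean in cells labelled as ERR beta -/- with no ERR beta construct (-0.30 ± 0.07, adjusted p = 0.011 by edgeR). The count is summed over all exons of the gene, so it does not show whether a functional protein was made. That call was lost without clone 5-2 (adjusted p = 0.093), 14-1-10 (0.056) or 14-11 (0.077). Esrra, the ERR alpha gene (minus strand of chromosome 19, 6910977 to 6921808), was at 26.0 and 28.2 CPM in the WT_mock clones and 29.7 and 25.1 CPM in the KO_ERRg_wt clones, and the groups overlapped (0.02 ± 0.10, adjusted p = 0.91).

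Over all genes, 2165 of 15238 were higher in KO_ERRg_wt than in WT_mock (14.2%) and 2119 were lower (13.9%), 28.1% in all. Outside chromosomes 6, 8 and 14 the numbers were 2107 higher (16% of 13194 genes) and 1107 lower (8.39%), or 24.4% in all, and differences of at least 2-fold made up 455 of the first and 489 of the second. The higher genes made up 65.6% of these calls. With the genes of chromosomes 6, 8 and 14 left out of the scaling, the split was 1470 higher and 1235 lower, 54.3% higher. The median log2 fold change of the genes outside these chromosomes was 0.06 in the fit of all genes and 0.01 with the 3 chromosomes left out, so small changes in either direction depend on that choice. The counts moved with single clones: without clone 14-1-10 there were 893 higher and 382 lower genes, without 14-11 996 and 382, without 5-2 945 and 470, and without 5-5 1254 and 677.

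To ask what ERR gamma restored, genes were taken that differed at least 2-fold and were called between KO_mock and WT_mock (10.2% of 15238 genes), and were sorted by the calls of KO_ERRg_wt against KO_mock (38.3% of genes called) and against WT_mock. The 3 comparisons share clones, so the classes are a description. Outside chromosomes 6, 8 and 14 there were 1307 such genes, 881 lower and 426 higher in KO_mock. Of these, 583 (44.6%) were restored, meaning called away from KO_mock and not called against WT_mock. Another 52 (3.98%) were partly restored, with calls against both groups and a level between them. The 258 unrestored genes (19.7%) differed from WT_mock in the direction of the knockout and were not called against KO_mock. The 78 overshot genes (5.97%) were called past WT_mock, on the side opposite to the knockout. A further 23 (1.76%) were driven further from WT_mock than the knockout was, and 313 (23.9%) met none of these definitions. Separately, 1169 genes not called in KO_mock against WT_mock differed from both groups in the same direction, 775 higher and 394 lower, in the ERR gamma clones. This class is named changed in the ERR gamma clones only, but KO_ERRb_wt took no part in its definition. Overshot genes numbered 28 without clone 14-1-10, 37 without 14-11, 38 without 5-2 and 36 without 5-5, and unrestored genes 113, 121, 69 and 236 in the same order.

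**Figure D1:**
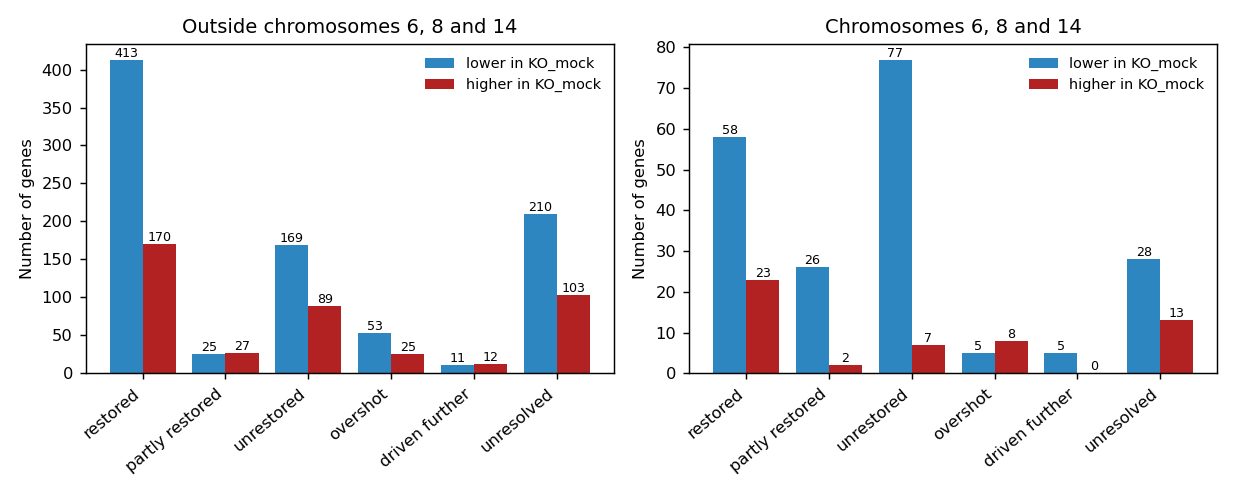
Number of genes (vertical axis) in each class (horizontal axis) among genes at least 2-fold changed and called in KO_mock against WT_mock, with genes lower in KO_mock in blue and higher in red. Restored genes are the largest class outside chromosomes 6, 8 and 14 (413 and 170, left), whereas unrestored genes lower in KO_mock are the largest on those chromosomes (77, right). The right panel pools chromosome 14, also shifted in KO_mock, with chromosomes 6 and 8.

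In all, 25 overshot genes were high in KO_mock and fell below wild type. Dnmt3l (chromosome 10, 78042287 to 78063622, plus strand), the catalytically inactive partner of the de novo DNA methyltransferases, was at 89.9 and 109 CPM in the WT_mock clones, 342 and 349 in the KO_mock clones, 181 and 223 in the KO_ERRb_wt clones and 11.1 and 15.5 in the KO_ERRg_wt clones. Its level was 7.5-fold lower in KO_ERRg_wt than in WT_mock (-2.91 ± 0.21, adjusted p = 2.3e-05 by edgeR) and 26.0-fold lower than in KO_mock. Dnmt3b, a de novo methyltransferase, went from 138 and 162 CPM in WT_mock and 471 and 475 in KO_mock to 71.5 and 75.4 in KO_ERRg_wt (-1.03 ± 0.25, adjusted p = 0.012). In both genes the KO_ERRg_wt clones lay below every clone of the other 3 groups.

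Wnt8a, a secreted Wnt ligand of the primitive streak, was at 3.10 and 3.79 CPM in WT_mock, 17.2 and 12.5 in KO_mock and 0.466 and 0.395 in KO_ERRg_wt (-2.99 ± 0.59). Lef1, a transcription factor that acts with beta-catenin, was at 17.6 and 26.8 CPM in WT_mock, 51.7 and 46.4 in KO_mock and 7.31 and 9.19 in KO_ERRg_wt (-1.43 ± 0.36). Cdx2, a homeobox factor of trophectoderm and posterior mesoderm, was at 0.799 and 1.38 CPM in WT_mock, 5.55 and 3.46 in KO_mock and 0.179 and 0.276 in KO_ERRg_wt (-2.25 ± 0.69). None of these groups overlapped. The same order was measured in Nlrc4, an inflammasome adaptor, with 24.3 and 39.7 CPM in WT_mock, 77.9 and 77.0 in KO_mock and 4.16 and 4.22 in KO_ERRg_wt (-2.93 ± 0.40). Btla, a lymphocyte inhibitory receptor (-2.49 ± 0.48), and Mroh6 (-2.27 ± 0.26) were the other 2 of the 5 lowest overshot genes taken by the naming rule. The direct comparison with clones given ERR beta, in which 25.4% of all genes were called, gave log2 differences of KO_ERRg_wt over KO_ERRb_wt of -3.93 for Dnmt3l, -1.93 for Dnmt3b, -4.23 for Wnt8a, -2.58 for Lef1, -3.69 for Cdx2 and -3.62 for Nlrc4, all called by edgeR. Against WT_mock, the calls of Dnmt3b, Lef1 and Cdx2 were lost without clone 14-1-10 (adjusted p = 0.081, 0.10 and 0.18), without 14-11 (0.062, 0.052 and 0.10) and without 5-5 (0.067, 0.088 and 0.14). Those of Dnmt3b and Lef1 were also lost with no filter (0.055 and 0.057).

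In all, 53 overshot genes were low in KO_mock and rose above wild type. Fabp3 (chromosome 4, 130308778 to 130315463, plus strand), the heart-type fatty acid binding protein, was at 19.9 and 12.7 CPM in the WT_mock clones, 4.30 and 4.82 in the KO_mock clones, 15.4 and 12.7 in the KO_ERRb_wt clones and 53.9 and 64.4 in the KO_ERRg_wt clones. It was 3.63-fold higher in KO_ERRg_wt than in WT_mock (1.86 ± 0.20, adjusted p = 0.00013 by edgeR), and the KO_ERRb_wt clones overlapped with WT_mock. Cpt1b, an enzyme of muscle that loads long-chain fatty acids onto carnitine for import into mitochondria, was at 20.8 and 11.4 CPM in WT_mock, 2.34 and 3.05 in KO_mock, 13.6 and 7.59 in KO_ERRb_wt and 34.3 and 35.2 in KO_ERRg_wt (1.11 ± 0.33, adjusted p = 0.030). A read-through gene that joins Cpt1b to its neighbour Chkb shares 94.8% of the exon length. The call of Cpt1b was lost without clone 5-5 (adjusted p = 0.19), 14-1-10 or 14-11 (0.11 for each). It was also lost with chromosomes 6, 8 and 14 left out of the fit (0.052), with 3 groups in the fit (0.053), with 1 library per clone (0.065) and with no filter (0.072), so its overshoot rests on these choices.

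Krt7, a keratin of simple epithelia, was at 1.06 and 0.968 CPM in WT_mock, 0.227 and 0.411 in KO_mock, 0.281 and 0.126 in KO_ERRb_wt and 6.27 in both KO_ERRg_wt clones (2.63 ± 0.40, adjusted p = 0.00094). Lama3, a laminin chain of basement membranes, was at 5.21 and 5.31 CPM in WT_mock, 1.87 and 2.7 in KO_mock and 18.8 and 19.6 in KO_ERRg_wt (1.87 ± 0.27). Copz2, a subunit of the COPI vesicle coat, was also among the highest (2.32 ± 0.43). Ddit3, the stress-induced transcription factor CHOP, was at 15.5 and 8.24 CPM in WT_mock, 4.39 and 4.95 in KO_mock and 29.7 and 31.8 in KO_ERRg_wt (1.37 ± 0.27). Over KO_ERRb_wt the log2 differences were 2.08 for Fabp3, 1.71 for Cpt1b, 4.92 for Krt7, 2.89 for Lama3, 2.42 for Copz2 and 2.42 for Ddit3, each called by edgeR.

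**Figure D2:**
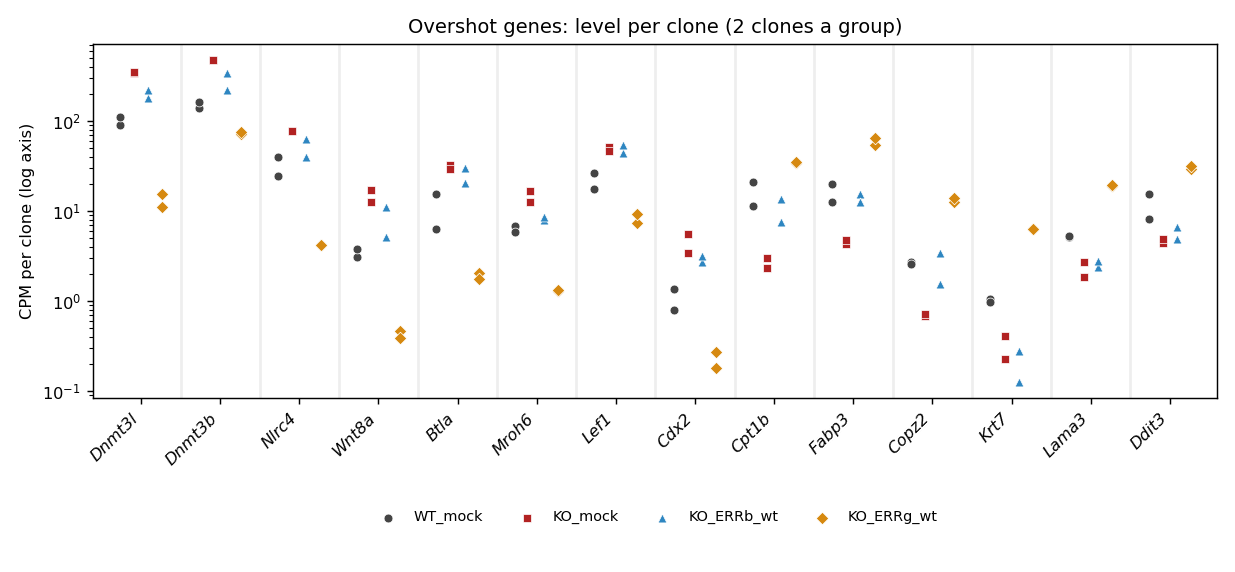
Level of 14 overshot genes in CPM (log axis) for each clone of 4 groups, with 2 points a group. In the 8 genes at the left the KO_ERRg_wt clones (orange diamonds) lie below all other clones, as in Dnmt3l at 11.1 and 15.5 CPM, and in the 6 at the right they lie above all others, as in Fabp3 at 53.9 and 64.4 CPM.

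Of the 169 unrestored genes that stayed low, the 5 lowest by the naming rule follow. Cyr61, a matrix-associated signalling protein, was at 10.2 and 5.99 CPM in WT_mock, 2.12 and 1.97 in KO_mock and 1.29 and 1.07 in KO_ERRg_wt (-2.78 ± 0.32, adjusted p = 0.00019 by edgeR). Chrnb2, a nicotinic acetylcholine receptor subunit, was at 10.0 and 8.59 CPM in WT_mock, 3.62 and 3.57 in KO_mock and 2.76 and 2.64 in KO_ERRg_wt (-1.78 ± 0.16). Krt18, a keratin of simple epithelia, was at 17.6 and 16.5 CPM in WT_mock, 5.12 and 6.32 in KO_mock and 5.45 and 4.62 in KO_ERRg_wt (-1.76 ± 0.26). In Krt18 the KO_ERRg_wt clones overlapped with KO_mock, and in the other 2 genes they lay below it. Tcea2, a transcription elongation factor (-1.62 ± 0.18), and Cldn7, a tight junction protein (-1.58 ± 0.47), were the next lowest, and the call of Cldn7 was lost without any 1 of the 4 clones (adjusted p = 0.063 without 5-5 and 0.13 without each of the others), with 1 library per clone (0.078) and with no filter (0.097). Cyr61, Chrnb2 and Krt18 were low with ERR beta as well: the KO_ERRb_wt clones held 1.79 and 1.56 CPM of Cyr61, 4.17 and 3.90 of Chrnb2 and 8.91 and 5.52 of Krt18, below both WT_mock clones in each. Cldn7, at 22.4 and 9.65 CPM in KO_ERRb_wt, was not called there against WT_mock (adjusted p = 0.30 by edgeR). Over KO_ERRb_wt, KO_ERRg_wt was called lower for Chrnb2 (-0.58, adjusted p = 0.020) and Tcea2 (-0.60, adjusted p = 0.032). Cyr61, Krt18 and Cldn7 were not called in that comparison.

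The unrestored genes that stayed high numbered 89. Osm, a cytokine of the LIF family, was at 1.22 and 1.48 CPM in WT_mock, 9.46 and 10.9 in KO_mock, 3.59 and 6.66 in KO_ERRb_wt and 8.50 and 10.3 in KO_ERRg_wt (2.79 ± 0.42, adjusted p = 0.00094). Pdzrn4 was at 0.260 and 0.453 CPM in WT_mock, 7.94 and 5.78 in KO_mock, 2.85 and 2.40 in KO_ERRb_wt and 4.98 and 7.46 in KO_ERRg_wt (4.12 ± 0.54). In both genes the KO_ERRg_wt clones overlapped with KO_mock, whereas the KO_ERRb_wt clones lay between KO_mock and WT_mock, though neither difference of KO_ERRg_wt over KO_ERRb_wt was called (0.87, adjusted p = 0.12, and 1.24, adjusted p = 0.051). Fgfr2, a fibroblast growth factor receptor, was at 0.459 and 0.886 CPM in WT_mock, 5.41 and 4.35 in KO_mock, 0.883 and 1.64 in KO_ERRb_wt and 4.19 and 4.58 in KO_ERRg_wt (2.7 ± 0.52). Notum, a secreted Wnt inhibitor, was at 11.4 and 16.2 CPM in WT_mock, 30.3 and 27.4 in KO_mock, 12.0 and 15.3 in KO_ERRb_wt and 36.2 and 29.8 in KO_ERRg_wt (1.26 ± 0.26). Here the direct differences over KO_ERRb_wt were called, at 1.80 for Fgfr2 (adjusted p = 0.019 by edgeR) and 1.28 for Notum (adjusted p = 0.0050). The call of Notum against WT_mock was lost without clone 5-2 (adjusted p = 0.053). Mobp (4.14 ± 0.86), Gna14, a G protein alpha subunit (3.75 ± 0.88), and Txlnb (3.61 ± 0.63) were also among the highest, and the call of Gna14 was lost without clone 5-2 or 5-5. WT_mock held only 11 counts of Mobp and 21 of Gna14.

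**Figure D3:**
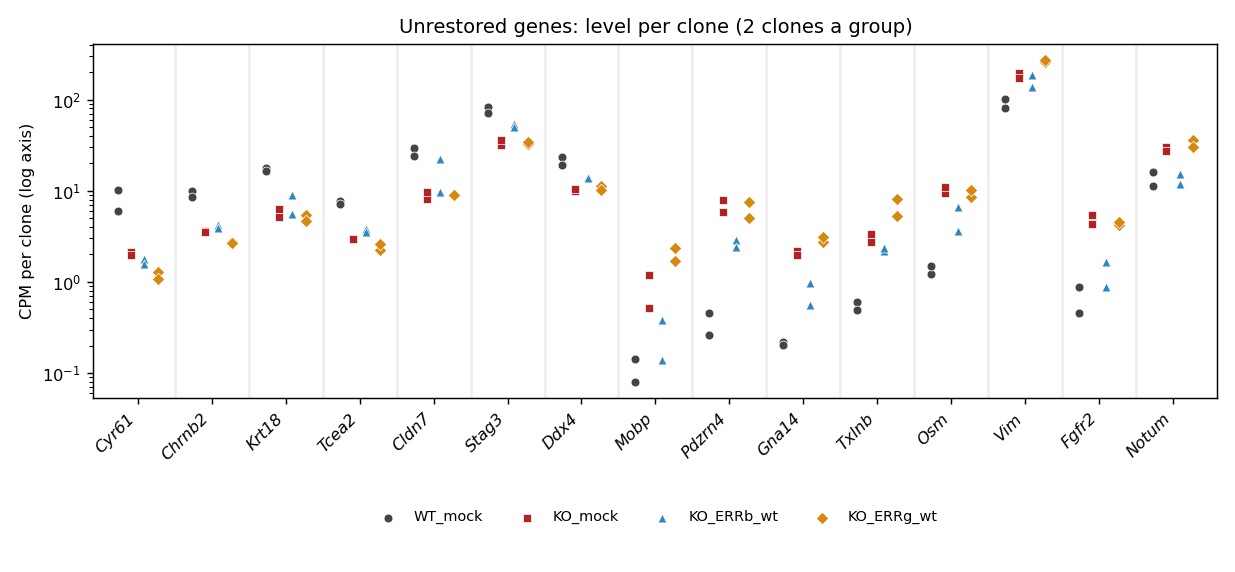
Level of 15 unrestored genes in CPM (log axis) for each clone of 4 groups, with 2 points a group. The KO_ERRg_wt clones (orange diamonds) lie away from the WT_mock clones (grey circles) on the side of the KO_mock clones (red squares), below in the 7 genes at the left, such as Krt18 at 5.45 and 4.62 CPM, and above in the 8 at the right, such as Osm at 8.50 and 10.3 CPM.

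Restored genes were ranked by their difference from the knockout. T, the mesoderm factor Brachyury (chromosome 17, 8434423 to 8442496, plus strand), was at 8.73 and 13.1 CPM in WT_mock, 52.7 and 47.0 in KO_mock, 51.2 and 34.5 in KO_ERRb_wt and 3.69 and 2.56 in KO_ERRg_wt. It was called 15.9-fold lower than in KO_mock (adjusted p = 0.0069), and both KO_ERRg_wt clones were below both WT_mock clones without a call (-1.80 ± 0.90, adjusted p = 0.16). Prickle1, a planar cell polarity protein, was at 0.939 and 1.75 CPM in WT_mock, 23.2 and 19 in KO_mock and 1.18 and 1.26 in KO_ERRg_wt, within the WT_mock range. Klhdc7a was at 12.0 and 6.55 CPM in WT_mock, 0.591 and 0.757 in KO_mock and 21.2 and 18.7 in KO_ERRg_wt, above both WT_mock clones without a call (1.11 ± 0.39, adjusted p = 0.056). S100a1, a calcium-binding protein of heart and muscle, was at 8.31 and 4.88 CPM in WT_mock, 0.751 and 1.06 in KO_mock and 15.4 and 18.9 in KO_ERRg_wt (1.37 ± 0.62, adjusted p = 0.12). With 3 groups in the fit T, Klhdc7a and S100a1 were called against WT_mock (adjusted p = 0.0021, 0.018 and 0.0031 by edgeR). Being restored therefore means that a difference from WT_mock was not called with 2 clones a group, not that levels were equal.

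Partly restored genes lay between the groups. Rimbp2, a presynaptic scaffold protein, was at 0.320 and 0.288 CPM in WT_mock, 6.35 and 5.24 in KO_mock and 1.04 and 1.22 in KO_ERRg_wt (1.88 ± 0.57). Itga3, an integrin subunit, was at 51.9 and 38.6 CPM in WT_mock, 8.69 and 9.41 in KO_mock and 16.6 and 12.9 in KO_ERRg_wt (-1.62 ± 0.25). Clones of the 3 groups did not overlap in either gene. The call of Rimbp2 was lost without any 1 of the 4 clones of the comparison (adjusted p = 0.089 without 14-1-10 to 0.13 without 14-11).

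Genes driven further from wild type than the knockout were led by H19 (chromosome 7, 142575530 to 142578146, minus strand), an imprinted noncoding RNA. It was at 34.8 and 45.1 CPM in WT_mock, 9.55 and 6.51 in KO_mock, 3.35 and 1.07 in KO_ERRb_wt and 0.251 and 0.0395 in KO_ERRg_wt, with 8 counts in the KO_ERRg_wt clones and 3934 in the WT_mock clones. The ratio of WT_mock to KO_ERRg_wt was 275, with an exact 95% interval for counting error of 139 to 637, and the difference over KO_ERRb_wt was not called (adjusted p = 0.081). Trpm1, a cation channel, was at 6.83 and 7.29 CPM in WT_mock, 16.7 and 18 in KO_mock, 11.6 and 9.23 in KO_ERRb_wt and 73.2 and 70.6 in KO_ERRg_wt (3.35 ± 0.34, adjusted p = 0.00010 by edgeR). Svop, a synaptic vesicle protein (-3.08 ± 0.52), Anxa3, an annexin (-2.05 ± 0.29), Marveld2, a tight junction protein (-1.85 ± 0.27), and Tmc4 (-2.01 ± 0.26) were lower, and Crisp1, a secreted protein of the male tract (3.07 ± 0.40), and Lipc, hepatic lipase (3.04 ± 0.44), were higher. Adh1, an alcohol dehydrogenase, had 7 counts in WT_mock and 68 in KO_ERRg_wt. Rpl10l (2.83 ± 0.20) is a near copy of Rpl10, and reads that fit both genes may have been lost, so its value is uncertain.

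Among genes changed in the ERR gamma clones only, Tgfbi (chromosome 13, 56609603 to 56639339, plus strand), a secreted matrix protein, was at 1.22 and 1.01 CPM in WT_mock, 1.43 and 0.800 in KO_mock, 0.702 and 0.948 in KO_ERRb_wt and 12.8 and 14.8 in KO_ERRg_wt. It was 12.3-fold higher in KO_ERRg_wt than in WT_mock (3.62 ± 0.35, adjusted p = 7.2e-05), above every clone of the other 3 groups. Alox15, a lipoxygenase, was at 4.97 and 4.94 CPM in WT_mock, 8.92 and 9.41 in KO_mock, 9.33 and 6.18 in KO_ERRb_wt and 0.143 and 0.118 in KO_ERRg_wt, where 7 counts remained (ratio of WT_mock to KO_ERRg_wt 39.0, exact 95% counting interval 18.8 to 97.6). Aire, a transcriptional regulator of thymic self-antigens, also had 7 counts in KO_ERRg_wt against 280 in WT_mock (ratio 22.4, exact 95% counting interval 10.7 to 56.1). Its span (chromosome 10, 78030022 to 78043610, minus strand) overlaps that of Dnmt3l on the opposite strand, so these are not separate loci. Ptgs1, cyclooxygenase 1, was at 4.57 and 7.58 CPM in WT_mock and 0.538 and 0.355 in KO_ERRg_wt (-3.75 ± 0.64). Nt5e, the ecto-5'-nucleotidase CD73, was at 24.0 and 24.4 CPM in WT_mock, 27.1 in both KO_mock clones and 3.08 and 3.55 in KO_ERRg_wt (-2.87 ± 0.48). Nrros (-2.90 ± 0.40) and Hs6st2, a heparan sulfate sulfotransferase (-2.79 ± 0.55), were also lower. Mep1b, a membrane metalloprotease (3.52 ± 0.58), Rhox9, a reproductive homeobox gene (3.55 ± 0.82), and Ptprtos, an antisense transcript (4.10 ± 0.62), were higher, and the call of Rhox9 was lost without clone 5-2 (adjusted p = 0.078) or 5-5 (0.050). Each of the genes in this paragraph with a log2 fold change was also called against KO_ERRb_wt.

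The gene lists were counted over members outside chromosomes 6, 8 and 14, where 16% of all genes were higher, 8.39% lower and the median log2 fold change was 0.06. Of 28 respiratory chain genes, 19 rose, 0 fell and 9 were not called, with a median of 0.28 (16 rose with chromosomes 6, 8 and 14 left out of the scaling). The changes were small. Atp5b, the catalytic beta subunit of ATP synthase (0.32 ± 0.05), Cox5b, a cytochrome c oxidase subunit (0.51 ± 0.08), Cox6a1, another of its subunits (0.57 ± 0.08), and Atp5h, an ATP synthase stalk subunit (0.40 ± 0.05), had the smallest p. Over KO_ERRb_wt, 18 of all 32 tested members were higher and 0 lower, and the list's median in KO_mock over WT_mock was 0.05, with 3 members higher and 2 lower. For comparison with these and the later list counts, 2055 of all 15238 genes were higher and 1815 lower in KO_ERRg_wt than in KO_ERRb_wt. In KO_mock against WT_mock, 2747 of all 15238 genes were called higher and 2955 lower, with no limit on fold change.

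Of 20 fatty acid oxidation genes, 6 rose, 0 fell and 14 were not called (median 0.25), and 3 rose with the 3 chromosomes left out of the scaling. Etfb, a subunit of the electron transfer flavoprotein, was at 52.3 and 46.8 CPM in WT_mock and 69.5 and 71.6 in KO_ERRg_wt (0.51 ± 0.08). Acadm, the medium-chain acyl-CoA dehydrogenase, was at 89.6 and 98.3 CPM in WT_mock and 132 and 124 in KO_ERRg_wt (0.45 ± 0.09). In KO_mock 8 of the 20 were lower than in WT_mock and 1 higher, and over KO_ERRb_wt 10 were higher in KO_ERRg_wt and 0 lower. Of 18 tricarboxylic acid cycle genes, 7 rose and 2 fell (median 0.16), or 5 and 2 with the 3 chromosomes left out of the scaling. Idh2 (chromosome 7, 80094847 to 80115350, minus strand), the mitochondrial NADP-dependent isocitrate dehydrogenase, was at 157 and 139 CPM in WT_mock, 80.7 and 78.9 in KO_mock, 143 and 114 in KO_ERRb_wt and 331 and 335 in KO_ERRg_wt, 2.24-fold above WT_mock (1.17 ± 0.13, adjusted p = 0.00016 by edgeR). Sdhb, the iron-sulfur subunit of succinate dehydrogenase, was at 106 and 100 CPM in WT_mock and 138 and 141 in KO_ERRg_wt (0.43 ± 0.06). No clone of the 2 groups overlapped in these 4 genes.

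Of 14 glycolysis genes, 7 rose and 2 fell (median 0.23), or 6 and 2 with chromosomes 6, 8 and 14 left out of the scaling. Ldha, which makes lactate from pyruvate, was at 375 and 451 CPM in WT_mock and 230 and 197 in KO_ERRg_wt (-0.95 ± 0.16), and Pfkp, a phosphofructokinase, was at 396 and 358 CPM in WT_mock and 246 and 245 in KO_ERRg_wt (-0.62 ± 0.08). Gpi1, glucose phosphate isomerase, rose (0.37 ± 0.05). Ldhb, another lactate dehydrogenase gene, lies on chromosome 6 and so was not counted here. It rose from 353 to 471 CPM over the WT_mock libraries to 792 and 827 CPM in KO_ERRg_wt (adjusted p = 0.0021 by edgeR). Of 11 muscle and heart energy genes, 5 rose and 2 fell (median 0.45), or 4 and 2 with chromosomes 6, 8 and 14 left out of the scaling. Ckb, the brain-type creatine kinase, was at 127 and 167 CPM in WT_mock, 193 and 164 in KO_mock and 392 and 397 in KO_ERRg_wt (1.42 ± 0.22), and Atp2a2, the calcium pump SERCA2, was at 227 and 230 CPM in WT_mock and 316 and 326 in KO_ERRg_wt (0.49 ± 0.05). Des, desmin, fell against WT_mock (-1.29 ± 0.34) while being partly restored from 2.77 and 4.15 CPM in KO_mock to 12.1 and 11.5, a call lost without clone 5-2 (adjusted p = 0.14), 14-1-10 (0.086) or 14-11 (0.096).

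**Figure D4:**
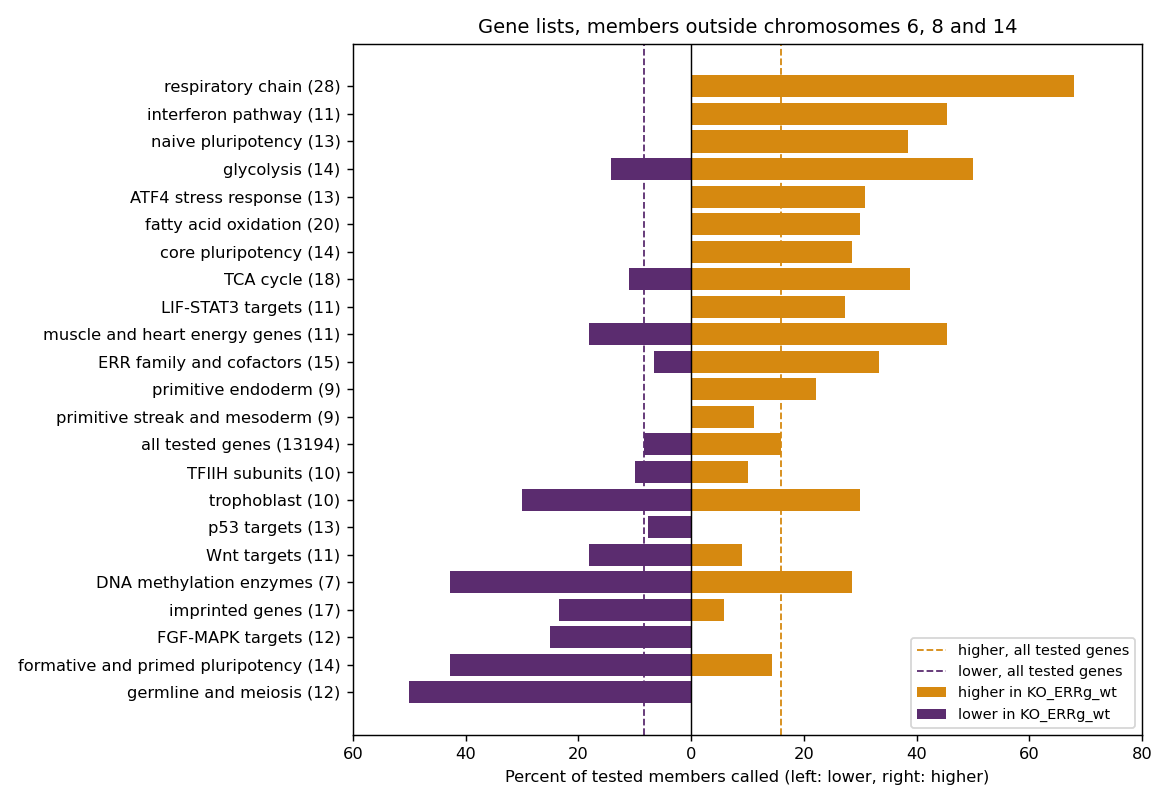
Percent of the tested members of each list called higher (orange, right) or lower (purple, left) in KO_ERRg_wt than in WT_mock, outside chromosomes 6, 8 and 14, with the number of members in parentheses and lists of fewer than 7 left out. Dashed lines mark all 13194 genes (16% higher, 8.39% lower), and respiratory chain genes reach the highest share called higher (19 of 28).

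Of 13 naive pluripotency genes, 5 rose, 0 fell and 8 were not called (median 0.33). With the members on chromosomes 6, 8 and 14 included, Zfp42 on chromosome 8 fell as well. Tfcp2l1, a transcription factor of the naive state, was at 612 and 665 CPM in WT_mock, 498 and 478 in KO_mock, 588 and 586 in KO_ERRb_wt and 996 and 990 in KO_ERRg_wt (0.64 ± 0.07, adjusted p = 0.00017). Prdm14, a repressor of differentiation genes, was at 21.9 and 21.8 CPM in WT_mock, 10.4 and 13.3 in KO_mock and 44.4 and 40.7 in KO_ERRg_wt (0.96 ± 0.15). Nr0b1, the nuclear receptor DAX1, was at 20.3 and 26.2 CPM in WT_mock, 26.4 and 24.0 in KO_mock and 66.7 and 73.5 in KO_ERRg_wt (1.59 ± 0.23). For all 3 the KO_ERRg_wt clones lay above every clone of the other groups. Of 14 core pluripotency genes, 4 rose and 0 fell (median 0.13), or 2 with the 3 chromosomes left out of the scaling, and Pou5f1, which encodes OCT4, did not differ by the test (0.04 ± 0.07, adjusted p = 0.70). Sox2 was at 222 and 273 CPM in WT_mock and 369 and 404 in KO_ERRg_wt (0.64 ± 0.13), a call lost without clone 5-2 (adjusted p = 0.059).

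Of 14 formative and primed pluripotency genes, 2 rose and 6 fell (median -0.57), and in KO_mock 6 of the list's 15 tested members were higher than in WT_mock and 1 lower. Dusp6, a phosphatase induced by ERK signalling, was at 65.7 and 76.9 CPM in WT_mock and 36.1 and 38.0 in KO_ERRg_wt (-0.94 ± 0.20), and Dnmt3a, a de novo DNA methyltransferase, was at 135 and 130 CPM in WT_mock and 85.0 and 85.6 in KO_ERRg_wt (-0.64 ± 0.19). Both calls were lost without clone 14-1-10 (adjusted p = 0.051 and 0.13). That of Dnmt3a was also lost without 14-11 (0.12), 5-2 (0.13) or 5-5 (0.083), with 1 library per clone (0.068) and with no filter (0.080). Lefty1, a Nodal inhibitor, went the other way, at 18.8 and 28.2 CPM in WT_mock, 40.8 and 45.6 in KO_mock and 92.9 and 87.2 in KO_ERRg_wt (1.94 ± 0.20, adjusted p = 0.00013). Of 12 FGF-MAPK targets, 3 fell and 0 rose (median -0.89), and of 11 Wnt targets 2 fell and 1 rose (median -0.77). The Wnt list's median was 0.73 in KO_mock over WT_mock, over its 13 tested members, where 8 were higher and 1 lower, and Sp5, a direct Wnt target, fell back from 32.2 and 19.4 CPM in KO_mock to 3.91 and 3.00 in KO_ERRg_wt, against 4.53 and 9.02 in WT_mock (-0.97 ± 0.67, adjusted p = 0.31). Of 9 primitive streak and mesoderm genes, 1 rose and 0 fell (median -0.39). The 4 mesoderm markers summed to 9.73 to 13.8 CPM in WT_mock and 2.92 to 4.80 CPM in KO_ERRg_wt, carried by T, and Mesp1 was at 0 to 0.020 CPM in WT_mock and at 0 in KO_ERRg_wt. The part that such cells may have in these values was not tested.

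Of 12 germline and meiosis genes, 6 fell and 0 rose (median -0.64), and 8 of 15 tested members had been lower in KO_mock. With chromosomes 6, 8 and 14 left out of the scaling, 5 of 11 tested members fell. Ddx4, the germ cell RNA helicase Vasa, was at 23.3 and 19.1 CPM in WT_mock, 10.0 and 10.4 in KO_mock, 14.0 and 13.8 in KO_ERRb_wt and 11.2 and 10.3 in KO_ERRg_wt (-0.98 ± 0.14, adjusted p = 0.00064). Stag3, a meiotic cohesin subunit, was at 82.7 and 71.3 CPM in WT_mock, 31.6 and 36.3 in KO_mock, 54.0 and 50.4 in KO_ERRb_wt and 32.4 and 34.5 in KO_ERRg_wt (-1.20 ± 0.24). Both were unrestored, and the difference of KO_ERRg_wt over KO_ERRb_wt was not called for either (adjusted p = 0.074 and 0.067). Of 7 DNA methylation enzymes, Dnmt3l, Dnmt3a and Dnmt3b fell and 2 rose. Dnmt1, the maintenance methyltransferase, was at 505 and 498 CPM in WT_mock and 638 and 607 in KO_ERRg_wt (0.31 ± 0.06), and Tet1, a methylcytosine dioxygenase, was at 339 and 328 CPM in WT_mock and 388 and 406 in KO_ERRg_wt (0.25 ± 0.06), a call lost without clone 14-11 (adjusted p = 0.080) or 5-5 (0.066) and with 1 library per clone (0.086). Of 10 TFIIH subunits, 1 rose and 1 fell (median 0.11), or 0 and 1 with chromosomes 6, 8 and 14 left out of the scaling. The log2 fold changes were 0.18 for Cdk7, the kinase subunit, and -0.27 for Gtf2h5. Both calls were lost without any 1 of the 4 clones, with adjusted p up to 0.16 for Cdk7 (without 14-1-10) and 0.19 for Gtf2h5 (without 14-11).

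Start-site windows of RefSeq (GRCm38.p6, which is mm10, 250 bases before to 50 after the start) were searched on both strands for the extended ERR element TCAAGGTCA, which was present in 0.423% of 32851 windows. It was present in 8 of 1675 genes called higher that have a window (0.478%), 2 of 1530 called lower (0.131%) and 35 of all 11119 tested genes (0.315%). By class it was present in 3 of 498 restored genes (0.602%), 0 of 55 overshot and 0 of 235 unrestored genes. Of the genes changed in the ERR gamma clones only, 5 of 1195 held it (0.418%). These counts include chromosomes 6, 8 and 14 and are too small to tell the classes apart. A match is only a description of these letters in this window. The stretches below are the 150 bases before a start of 5 called genes that hold it within that distance, on the strand of the gene, with the element or its reverse complement in capitals. They are shown because the element lies near an annotated start of a gene that differed. RefSeq gives some genes several starts: the stretch of Sgms1 precedes an alternative start inside the gene, which spans 32122727 to 32388454 in the files, and the other 4 stretches end at the outer start of their gene.
Sgms1, chr19:32349317-32349466, minus strand: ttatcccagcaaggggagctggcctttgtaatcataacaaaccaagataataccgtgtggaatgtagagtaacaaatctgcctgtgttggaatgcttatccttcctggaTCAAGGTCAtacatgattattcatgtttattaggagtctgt
Atp5g3, chr2:73911327-73911476, minus strand: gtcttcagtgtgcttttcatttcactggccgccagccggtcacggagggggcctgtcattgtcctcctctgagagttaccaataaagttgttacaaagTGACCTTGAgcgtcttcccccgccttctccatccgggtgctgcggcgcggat
Myh7b, chr2:155611093-155611242, plus strand: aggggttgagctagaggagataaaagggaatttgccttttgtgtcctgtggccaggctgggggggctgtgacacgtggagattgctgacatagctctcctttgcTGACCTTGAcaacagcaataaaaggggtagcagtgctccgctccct
Msrb2, chr2:19371486-19371635, plus strand: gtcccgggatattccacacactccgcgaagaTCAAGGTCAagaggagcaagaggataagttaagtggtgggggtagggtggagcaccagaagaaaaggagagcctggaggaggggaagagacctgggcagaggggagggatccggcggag
Fancl, chr11:26386934-26387083, plus strand: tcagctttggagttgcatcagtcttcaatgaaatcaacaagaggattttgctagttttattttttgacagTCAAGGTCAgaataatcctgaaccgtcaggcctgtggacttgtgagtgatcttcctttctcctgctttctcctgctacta

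All 5 of these genes were higher in KO_ERRg_wt than in WT_mock, but they were picked by the distance of the element from the start. Zfp764 and Mtrf1l fell outside that distance, with the element 208 to 200 bases before the start. Against WT_mock, Zfp764 was called lower (-0.78 ± 0.15, adjusted p = 0.0032 by edgeR) and Mtrf1l was called higher (0.39 ± 0.12, adjusted p = 0.035). Whether the element goes with a rise was not tested. Sgms1, a sphingomyelin synthase, was at 26.8 and 28.8 CPM in WT_mock, 37.6 and 40.4 in KO_mock and 41.3 and 41.5 in KO_ERRg_wt (0.57 ± 0.08). Atp5g3, a subunit of the ATP synthase ring, was at 146 and 164 CPM in WT_mock, 185 and 183 in KO_mock and 201 and 195 in KO_ERRg_wt (0.36 ± 0.07). Msrb2, a mitochondrial methionine sulfoxide reductase, was at 19.1 and 30.2 CPM in WT_mock, 79.2 and 74.7 in KO_mock and 50.1 and 49.0 in KO_ERRg_wt (1.01 ± 0.20). Myh7b, a slow myosin heavy chain, was at 17.4 and 16.5 CPM in WT_mock, 17.7 and 17 in KO_mock and 24.2 and 24.5 in KO_ERRg_wt (0.53 ± 0.10), and Fancl, a Fanconi anemia ubiquitin ligase, was at 25.9 and 30.2 CPM in WT_mock, 35.5 and 40.1 in KO_mock and 37.8 and 38.3 in KO_ERRg_wt (0.44 ± 0.09). Sgms1, Atp5g3, Msrb2 and Fancl were called higher in KO_mock too, without either ectopic receptor, than in WT_mock, and Myh7b was not. The call of Fancl was lost without clone 5-2 (adjusted p = 0.063).

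One element lies in the windows of a divergent pair of genes of the mitochondrion, Timm8b, an inner membrane import chaperone, and Sdhd, a membrane anchor of succinate dehydrogenase. It is 96 to 88 bases before the start of Timm8b and, on the other strand, inside Sdhd, where it begins 37 bases after the start. On the strand of Timm8b it reads as follows.
Timm8b, chr9:50603795-50603823, plus strand: tttcgagggcTCAAGGTCActctacaacc
Timm8b was at 63.3 and 59.2 CPM in WT_mock and 74.9 and 74.1 in KO_ERRg_wt (0.28 ± 0.07, adjusted p = 0.0098), and Sdhd was at 182 and 187 CPM in WT_mock and 168 and 152 in KO_ERRg_wt (-0.21 ± 0.07, adjusted p = 0.048). The genes thus differed in opposite directions beside the same element. The call of Timm8b was lost without 5-5 (adjusted p = 0.089), 14-1-10 (0.074) or 14-11 (0.057), and that of Sdhd without any 1 of the 4 clones (0.051 to 0.29) and with RLE normalization (0.052).

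Chromosomes 6, 8 and 14 stood apart in KO_ERRg_wt. The median log2 fold change of their tested genes was -0.35 on chromosome 6 (736 genes), -0.50 on chromosome 8 (795 genes) and -0.52 on chromosome 14 (513 genes), which are 78.7%, 70.7% and 69.8% of the WT_mock level. The 17 other chromosomes had medians from 0.01 to 0.09. The 2 clones gave nearly the same shift: -0.33 and -0.34 on chromosome 6, -0.49 and -0.50 on chromosome 8, and -0.51 and -0.49 on chromosome 14. When each chromosome was divided into 5 runs of genes in order, every run was shifted in both clones, from -0.28 to -0.37 on chromosome 6, from -0.40 to -0.54 on chromosome 8 and from -0.44 to -0.59 on chromosome 14. KO_mock had a median of 0.03 on chromosome 6, 0.02 on chromosome 8 and -0.61 on chromosome 14. The share of genes called lower was 27.2% on chromosome 6, 62.5% on chromosome 8 and 61.4% on chromosome 14, against 5.42% to 11.1% on the others. Over KO_mock the KO_ERRg_wt median was -0.38 on chromosome 6, -0.53 on chromosome 8 and 0.05 on chromosome 14. Over KO_ERRb_wt it was -0.37, -0.55 and 0.006. Whether gene dosage had a part in this was not tested. In the comparison with WT_mock, a change on these chromosomes that follows ERR gamma cannot be told apart from one that follows the whole chromosome in these clones.

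**Figure D5:**
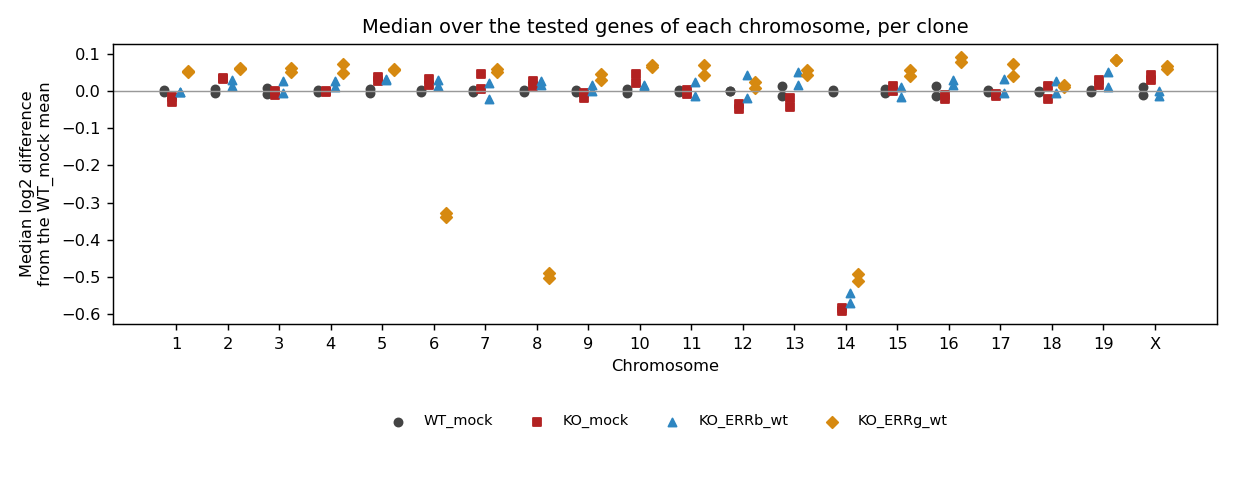
Median log2 difference from the WT_mock mean over the tested genes of each chromosome (horizontal axis), with 1 point per clone and 2 clones in each of 4 groups. The KO_ERRg_wt clones (orange diamonds) lie near -0.33 on chromosome 6 and near -0.50 on chromosomes 8 and 14, whereas KO_mock and KO_ERRb_wt are shifted on chromosome 14 alone.

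Of the 252 genes on chromosomes 6, 8 and 14 that were at least 2-fold changed and called in KO_mock against WT_mock, 81 (32.1%) were restored, 28 partly restored, 84 (33.3%) unrestored, 13 (5.16%) overshot, 5 driven further and 41 unresolved. A further 439 genes, 411 of them lower, were in the class changed in the ERR gamma clones only, which takes no account of KO_ERRb_wt. These counts pool chromosome 14, where the KO_mock median was -0.61, with chromosomes 6 and 8, where it was 0.03 and 0.02. What part the chromosome shifts have in the classes was not tested. The genes named here are given with the log2 fold change and then with the median of their chromosome subtracted. On chromosome 6, Ccnd2 (127125709 to 127151048, minus strand), which encodes cyclin D2, was at 10.5 and 9.76 CPM in WT_mock, 13 and 11.4 in KO_mock, 7.62 and 9.25 in KO_ERRb_wt and 0.681 and 0.513 in KO_ERRg_wt (-4.07 ± 0.30, or -3.73). Epha1, an ephrin receptor, was at 43.2 and 43.7 CPM in WT_mock and 4.95 and 4.81 in KO_ERRg_wt (-3.15 ± 0.45, or -2.81), and Zyx, the focal adhesion protein zyxin, was at 52.0 and 50.3 CPM and 8.10 and 8.48 CPM (-2.63 ± 0.36, or -2.28). The spans of Epha1 and Zyx overlap on opposite strands, so these are not separate loci. Higher were St8sia1, the GD3 synthase (2.35 ± 0.39, or 2.7), Pdzrn3 (1.84 ± 0.32, or 2.19) and Zc3hav1, an antiviral zinc finger protein (1.32 ± 0.30, or 1.66). Zc3hav1 was at 46.5 and 55.5 CPM in WT_mock, 94.3 and 89.0 in KO_ERRb_wt and 119 and 136 in KO_ERRg_wt. Its difference of KO_ERRg_wt over KO_ERRb_wt was not called (0.47, adjusted p = 0.27 by edgeR). The call of Zc3hav1 was lost without clone 5-2 (adjusted p = 0.076) or 14-11 (0.055).

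On chromosome 8 the lowest were Mmp2, a gelatinase (-2.31 ± 0.41, or -1.81), Ufsp2, a protease of the ubiquitin-like protein UFM1 (-2.05 ± 0.29, or -1.54), and Mfap3l (-1.87 ± 0.21, or -1.37). The highest were Pkd1l2, of the polycystin family (3.31 ± 0.56, or 3.82), Kbtbd11 (2.45 ± 0.76, or 2.95) and Cotl1, an actin-binding protein (1.33 ± 0.27, or 1.84). Pkd1l2 had only 12 counts in WT_mock, and was at 1.77 and 1.45 CPM in KO_mock and 1.29 and 1.18 in KO_ERRg_wt, so it was unrestored. The call of Kbtbd11 was lost without any 1 of the 4 clones and with no filter (adjusted p = 0.10 by edgeR). Zfp42, the naive marker REX1, was at 324 and 369 CPM in WT_mock and 257 and 244 in KO_ERRg_wt (-0.47 ± 0.09), a fall that became 0.03 with the chromosome median subtracted. On chromosome 14, Clu (65968483 to 65981545, plus strand), the secreted chaperone clusterin, was at 18.6 and 14.4 CPM in WT_mock, 3.68 and 4.56 in KO_mock, 4.23 and 2.63 in KO_ERRb_wt and 1.65 and 1.03 in KO_ERRg_wt (-3.61 ± 0.31, or -3.09). Nuggc (-3.28 ± 0.24, or -2.76) and Phf7, a PHD finger protein of the male germline (-2.50 ± 0.16, or -1.98), were also lowest there, and Fhit, a tumor suppressor (1.95 ± 0.38, or 2.47), Fam25c (1.46 ± 0.20, or 1.97) and Cdhr1, a photoreceptor cadherin (0.80 ± 0.21, or 1.31), were highest. The call of Cdhr1 was lost without clone 14-1-10 (adjusted p = 0.18) or 5-5 (0.13). Nanog, on chromosome 6, was at 912 and 925 CPM in WT_mock, 544 and 582 in KO_mock and 944 and 913 in KO_ERRg_wt, and the groups overlapped (0.02 ± 0.06, adjusted p = 0.87, or 0.36 with the chromosome median subtracted).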

How the data were processed

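The deposited file is a table of integer read counts per gene symbol. Alignment by the authors was to mm10 and used STAR 2.7.8a, as the submitters' processing notes name them. They counted reads over exons on the reverse strand with featureCounts, for which the file header names version 2.0.1 and those notes 2.0.10. A read in overlapping genes was counted for each, per the file headers. Libraries were stranded, depleted of ribosomal RNA and read as 100-base single ends, per the labels' protocols.

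Counts were summed per clone and fitted with edgeR (version 4.0.16, R version 4.3.3): filterByExpr, TMM, a robust quasi-likelihood model with 1 mean for each of 7 groups over 14 clones, and Benjamini-Hochberg adjustment over 15238 of 24421 genes. Fold changes have a prior count of 0.125. Standard errors were obtained as the absolute log2 fold change divided by root F. The design gives 2 clones a group, and p-values measure the spread between clones. CPM are counts over TMM-scaled totals; counting intervals cover counting error only. The script was tested on simulated data with the same spread for every gene and no shift of a chromosome. That test covered KO_ERRg_wt against WT_mock alone and not the classes. Alternatives included DESeq2 (version 1.42.0).

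The comparison, the lists and the members were chosen with earlier results of these data known. Named genes are the receptors; the 12 highest and 12 lowest outside chromosomes 6, 8 and 14; the 3 highest and 3 lowest on each of these; the 5 highest and 5 lowest of each class; and up to 4 members of each list by p. Apart from the receptors, the list members and the restored genes, they were called and had clones that did not overlap. They also averaged a log2 CPM of 1 or more over all 14 clones. That mean covers groups not shown here, so a gene low in the groups shown, such as Adh1, can meet it. Restored genes were ranked and separated against KO_mock. Predicted genes were passed over, and not every gene that met the rule is described; some are not reported here. Further list members and the genes with an ERR element were chosen after their values were seen.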

Additional observations from a re-analysis of the deposited data

How the results depend on the processing

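No paired analysis was possible because the clones are the replicates and share no number across groups. With 3 groups in the fit in place of 7, the calls rose to 3264 higher and 3538 lower genes, with 2163 lower outside chromosomes 6, 8 and 14, 166 overshot, 171 partly restored and 45 driven further. With no filter 34 genes were partly restored, and with 1 library per clone 161 were unrestored and 19 partly restored. RLE normalization gave a chromosome 6 median of -0.34, and genes of at least 10 CPM gave -0.30, -0.47 and -0.49 on chromosomes 6, 8 and 14. With 1 clone left out, the lone clone is assumed to vary like the other groups. Over these fits there were 925 to 1824 higher and 1018 to 1826 lower genes, or 893 to 1774 and 382 to 895 outside the 3 chromosomes, with 340 to 665 restored, 6 to 50 partly restored, 69 to 236 unrestored, 28 to 61 overshot, 4 to 21 driven further and 512 to 866 in the ERR gamma clones only. The medians ranged from -0.35 to -0.34 on chromosome 6, from -0.52 to -0.50 on chromosome 8 and from -0.55 to -0.52 on chromosome 14. Subtracting the chromosome median turned Zfp42 to 0.035 and Slc7a5, an amino acid transporter, to 0.040. The causes were not tested.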

Other observations

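Other lists are given as values. Of 11 interferon pathway genes outside chromosomes 6, 8 and 14, 5 rose and 0 fell in KO_ERRg_wt against WT_mock (median log2 fold change 0.56, against 0.06 over all genes). With those chromosomes left out of the scaling, 4 rose and 0 fell. Oas1a, an antiviral oligoadenylate synthetase, was at 0.939 and 1.92 CPM in the WT_mock clones and 7.67 and 9.86 in the KO_ERRg_wt clones, and Ifitm1, an interferon-induced membrane protein, was at 70.8 and 87.5 CPM in WT_mock, 161 and 152 in KO_mock and 165 and 183 in KO_ERRg_wt. In KO_mock 5 of the 13 tested members of that list were higher and 2 lower, beside 2747 and 2955 of all 15238 genes. Of 17 imprinted genes, 1 rose and 4 fell (median -0.31). Grb10, an imprinted adaptor of growth factor receptors, was at 8.19 and 8.71 CPM in WT_mock and 95.2 and 119 in KO_ERRg_wt (3.66 ± 0.70), a call lost without clone 5-2 (adjusted p = 0.052 by edgeR).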
